A study of Mus musculus with 384 samples.

Results

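The cells described here were labelled as embryonic mammary progenitors and carried a basal keratin transcript, separated by whether they also carried a luminal one. They were single cells of the embryonic gate with Krt5 or Krt14 at 100 CPM or more, where CPM expresses the reads of a gene relative to all gene reads of the cell, at the usual fixed scale. Of the embryonic single-cell wells, 14 were set aside for holding fewer than 50000 gene reads, fewer than 1500 detected genes or over 20% mitochondrial reads. Of those kept, 82.9% (interval 75.1% to 89.1%) met the basal keratin limit and 21 cells did not. The members were selected on their Krt5, Krt14, Krt8 and Krt18 levels: in 79 cells Krt8 or Krt18 was at 100 CPM or more, and these are called cells with luminal keratins. In the other 23 both were under 100 CPM, and these are called cells without luminal keratins, although most of them held some reads of Krt8 or Krt18. Values of these 4 genes are therefore a description, and all other genes are what is compared. The kept single cells of the 3 gates of the series numbered 331, in 384 wells.

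The well positions in the labels fill 1 plate, whose wells were read with Smart-seq2, which copies whole transcripts of a single sorted cell. The embryonic cells came from the whole skin, with its mammary buds, of female Lgr5-EGFP-IRES-CreER embryos at embryonic day 14, sorted as CD49f Hi/Lgr5 Hi after removal of CD45, CD31 and CD140a positive cells. The reporter places green fluorescence under the control of Lgr5, a Wnt pathway receptor, so every cell of both groups had passed a gate on that reporter. Adult Rosa-tdTomato glands gave CD24+CD29Hi basal and CD24+CD29Lo luminal cells, which serve here only as a reference. Nothing in the labels ties a cell to an embryo, so the gate counts as 1 sample from which both groups were drawn, and its cells are not replicates. None of the differences below was tested for that reason. The intervals given are exact, at 95%, and hold counting error alone, and copies made by PCR are not separate molecules.

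Keratins are intermediate filament proteins that pair as a type I and a type II partner. In the adult mammary gland Krt5 and Krt14 mark the basal, myoepithelial layer and Krt8 and Krt18 the luminal layer that lines the duct. In the embryonic bud both pairs can be found before the layers are set apart, and the series title names this early segregation of lineages as its subject. Simple epithelia with Krt8 and Krt18 also typically assemble tight junctions from claudins and occludin and sort proteins to an apical surface through the Crumbs and Par complexes.

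Most basal-keratin cells of the embryonic gate had a luminal keratin transcript. The share was 77.5% (79 cells with and 23 without, interval 68.1% to 85.1%), beside 53.6% (45 of 84, 42.4% to 64.5%) among adult basal cells that met the same basal limit. In the reverse direction 8 adult luminal cells (7.41% of those kept, 3.25% to 14.1%) reached the Krt5 or Krt14 limit. Kept embryonic cells had medians of 711721 gene reads and 3959 genes at 50000 reads, against 486690 and 2099.5 in kept adult basal cells. In summed reads Krt8 and Krt18 were at 359 and 209 CPM in kept embryonic and 925 and 735 CPM in kept adult basal cells. The part of depth in the shares of 77.5% and 53.6% was not tested. Of the 79 cells, 39 reached the limit for Krt8 alone, 9 for Krt18 alone and 31 for both. The embryonic well of 50 cells held Krt5 at 75.6, Krt14 at 659, Krt8 at 244 and Krt18 at 73.98 CPM. The adult basal well of 50 cells also held all 4, at 208, 1136, 449 and 633 CPM in the same order. A pool cannot show whether a single cell held both pairs.

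Krt8, the type II luminal keratin (ENSMUSG00000049382.9, GRCm38 chromosome 15, 101996698 to 102004482, minus strand), ran from 0 through a median of 341 to 4181 CPM in cells with luminal keratins. Without them its range was 0 to 99.2 CPM with a median of 11.5. Krt18, its type I partner (ENSMUSG00000023043.6, chromosome 15, 102028180 to 102032027, plus strand), ran from 0 through 102.8 to 1187 CPM in the first group and from 0 through 2.47 to 89.5 CPM in the second. The limit cut a continuous range: the 3 lowest cells inside had their higher luminal keratin at 129.2, 131.5 and 132.9 CPM, and the 3 highest outside had it at 99.2, 95.6 and 90.4 CPM. In all, 16 cells with luminal keratins lay between 100 and 200 CPM and 6 without lay between 50 and 100 CPM, while 3 cells had no read of either gene. These levels were below those of the adult luminal gate, where Krt8 had a median of 3484 and Krt18 of 5613 CPM.

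The basal keratins did not separate the groups. Krt5 had a median of 232 CPM (0 to 3807) in cells with luminal keratins and 169 CPM (1.58 to 1629) in cells without. For Krt14 the medians were 942 CPM (0 to 3761) and 812 CPM (7.93 to 3060). Both ranges overlapped over nearly their whole length, and 92.4% of cells with and 91.3% of cells without luminal keratins reached the Krt14 limit. All 4 keratins were at the limit or above in 22 cells, and 12 cells had Krt5 and Krt14 but neither luminal keratin.

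**Figure D1:**
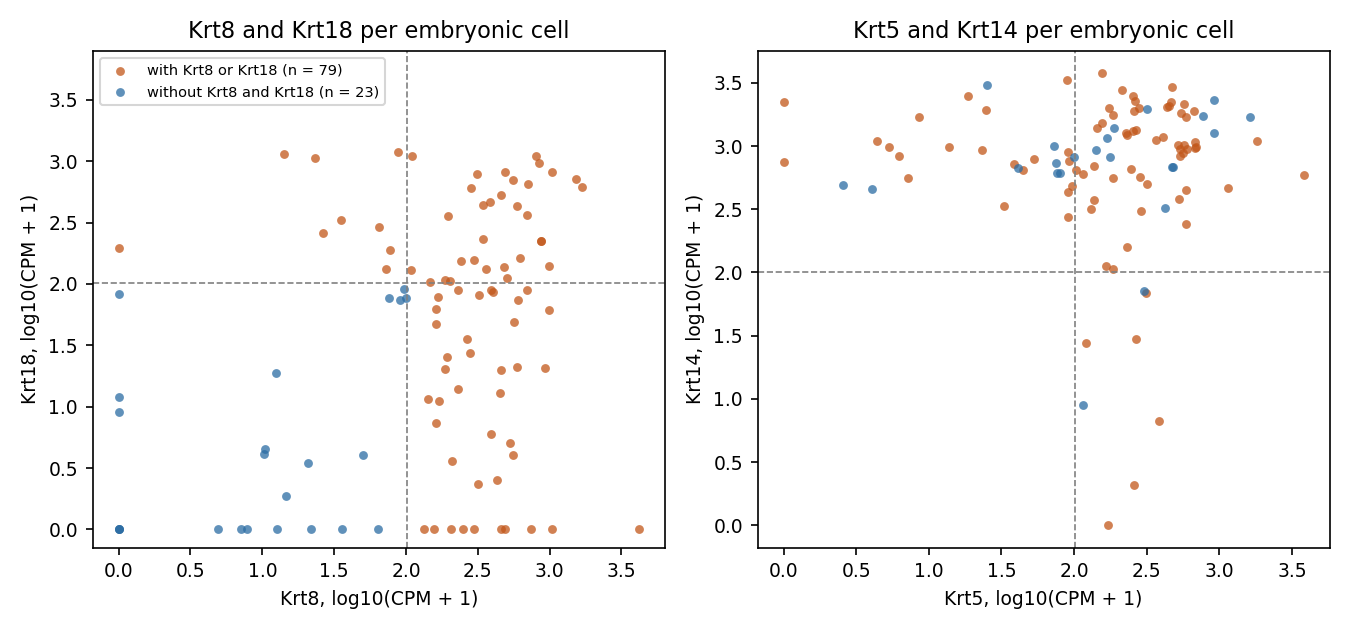
Each point is an embryonic cell with Krt5 or Krt14, with Krt8 against Krt18 on the left and Krt5 against Krt14 on the right, as log10(CPM + 1), and dashed lines at the 100 CPM limit. The 23 cells without luminal keratins fill the lower left corner of the left panel by construction and mix with the other 79 in the right panel.

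The promoters of both luminal keratins are shown first because these transcripts set the groups, and those of Cldn4 and Spint1 because their differences, given below, were at least 2-fold under each of 18 other ways of processing. Each run holds 250 bases before and 50 after the start of the gene, from RefSeq on GRCm38.p6, and all 4 genes were matched by symbol. Capitals mark matches, on either strand, of the TATA motif TATAAA, of the AP-1 motif TGANTCA, which reads the same on both strands, and of ACCGGT, the core of the motif of grainyhead-like factors. Krt8 lies at chr15:102004293-102004592 on the minus strand, Krt18 at chr15:102027966-102028265 on the plus strand, Cldn4 at chr5:134946885-134947184 on the minus strand and Spint1 at chr2:119237110-119237409 on the plus strand.
Krt8: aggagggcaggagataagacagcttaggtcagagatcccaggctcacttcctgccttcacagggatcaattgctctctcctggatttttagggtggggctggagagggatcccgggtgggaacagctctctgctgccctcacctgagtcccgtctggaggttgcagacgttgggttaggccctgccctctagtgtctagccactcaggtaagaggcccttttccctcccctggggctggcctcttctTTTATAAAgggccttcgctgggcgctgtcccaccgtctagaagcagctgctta
Krt18: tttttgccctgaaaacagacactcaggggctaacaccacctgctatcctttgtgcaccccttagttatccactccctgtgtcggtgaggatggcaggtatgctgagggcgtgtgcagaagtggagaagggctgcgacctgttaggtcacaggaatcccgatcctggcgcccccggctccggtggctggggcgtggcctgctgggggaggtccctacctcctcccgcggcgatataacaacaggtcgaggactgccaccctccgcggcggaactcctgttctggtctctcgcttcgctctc
Cldn4: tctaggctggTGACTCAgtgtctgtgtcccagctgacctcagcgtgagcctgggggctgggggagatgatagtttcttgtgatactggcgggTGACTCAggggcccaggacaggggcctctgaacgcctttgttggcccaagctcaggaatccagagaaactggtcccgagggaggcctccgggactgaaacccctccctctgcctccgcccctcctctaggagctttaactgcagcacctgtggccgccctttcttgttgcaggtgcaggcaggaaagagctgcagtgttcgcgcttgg
Spint1: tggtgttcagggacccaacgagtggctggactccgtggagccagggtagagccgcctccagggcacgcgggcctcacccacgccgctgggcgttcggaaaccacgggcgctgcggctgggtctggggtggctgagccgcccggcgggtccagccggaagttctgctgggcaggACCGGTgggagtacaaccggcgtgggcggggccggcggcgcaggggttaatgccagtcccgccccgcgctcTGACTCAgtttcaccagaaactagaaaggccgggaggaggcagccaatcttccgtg
In these windows Krt8 held 2 overlapping matches of TATAAA, 1 on each strand, and Krt18 held none of the 3 motifs. Cldn4 held 2 matches of TGANTCA, and Spint1 held 1 of TGANTCA and 1 of ACCGGT. Of 32851 mouse promoters of the same length, 13.6% held TATAAA, 7.81% TGANTCA and 2.33% ACCGGT. A match describes letters in the window and is not a bound site.

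Across all other genes the groups differed widely at low levels and little at high ones. Of 12233 genes measured, meaning at 5 CPM or more in the summed reads of either group, 22.3% (2723 genes) were higher by 2-fold or more and 15.9% (1939 genes) lower by as much in cells with luminal keratins. Ratios are log2 of summed CPM, with 1 CPM added to each, cells with over cells without luminal keratins, and their median over all measured genes was 0.08. Among the 2884 genes at 100 CPM or more in a group, 6.83% were 2-fold higher and 6.87% 2-fold lower, against 38.6% and 23.2% among the 3346 genes at 5 to 20 CPM. At 20 to 100 CPM the shares were 20.6% and 16.1%. With 23 cells in a group, a single cell can set the level of a low gene. The shares of 22.3% and 15.9% are therefore the background for lists over all levels. A list of genes at higher levels is to be read beside the shares at its level. Cells with luminal keratins also held more reads, with a median of 777480 gene reads against 436521, and had more genes at an equal depth of 50000 reads, 4003 against 3565. Mitochondrial reads made up a median of 5.43% against 6.39%, and spike-in reads 3.49% against 5.23%. All 23 cells without luminal keratins lay in plate rows K to P, whereas 11 of the 79 with them lay in rows A to J. The part of depth and of plate position in the counts was not tested, and within rows K to P there were 2726 genes higher and 2063 lower. The numbers were 3868 and 2428 in rows K to M (median 0.21), and 3602 and 2388 in rows N to P (median 0.16). With thinned cells they were 3068 and 2022, and with a luminal keratin limit of 200 CPM 2000 and 1942. Requiring both Krt8 and Krt18 gave 2705 and 2381, and both Krt5 and Krt14 3782 and 2100. List counts under these ways of processing are read beside these numbers.

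Claudins, which seal the apical junction, were among the genes higher in cells with luminal keratins. All 14 claudin and tight junction genes on the list were measured: 7 were 2-fold higher and 3 were 2-fold lower. Their median log2 ratio was 0.92, beside 0.08 for all measured genes. With cells thinned to equal depth 4 were higher and 3 lower, and of the 10 at 20 CPM or more 4 were higher and 2 lower, with a median of 0.52. Cldn4, a claudin that seals simple epithelia (chromosome 5, 134945119 to 134946934), was at 302 CPM in the summed reads of cells with luminal keratins and 80.8 CPM without, a fold of 3.74 (3.53 to 3.98). Per cell it ran from 0 through a median of 43.5 to 2326 CPM in the first group and from 0 through 5.26 to 486 CPM in the second. The ranges overlapped. The larger group, 79 cells against 23, is more likely to hold the highest cell, here and below. At equal depth 44.3% of cells with luminal keratins (35 of 79, 33.1% to 55.9%) had 5 or more Cldn4 reads, against 17.4% without (4 of 23, 4.95% to 38.8%). The log2 ratio of 1.89 ranged from 1.34 to 2.54 over 18 other ways of processing.

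Cldn7, another claudin of simple epithelia, was at 163 against 71.1 CPM (fold 2.29, 2.15 to 2.45), with cell medians of 53.3 and 26.6 CPM. Its log2 ratio of 1.18 was 0.73 with cells thinned to equal depth, under 2-fold. Cldn6, a claudin of embryonic epithelia, was at 368 against 224 CPM, under 2-fold (log2 ratio 0.71), with cell medians of 225 and 96.9 CPM. In adult basal cells it was at 4.49 CPM, so both embryonic groups carried far more of it. Cldn3, Ocln, the tetraspan protein occludin, and Cgn, the junction plaque protein cingulin, were 2-fold higher but low, at 14.7, 14.7 and 25.5 CPM in cells with luminal keratins. Marveld2, tricellulin, was at 58.2 against 25.2 CPM, but 1 cell held 90.8% of its reads in the cells without luminal keratins. Against this direction, Cldn8, a claudin, was at 9.66 against 50.4 CPM, with most of the latter from 1 cell. Marveld3, a relative of occludin, was also lower, at 6.48 against 17.7 CPM. The median of the list was 1.01 in plate rows K to M and 0.18 in rows N to P.

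The apical polarity and epithelial identity list had 7 of 17 measured members 2-fold higher and 0 lower, with a median of 0.66. Its members at 20 CPM or more numbered 13, with 5 higher, 0 lower and a median of 0.28. With a luminal keratin limit of 200 CPM 4 of the 17 were higher and 1 lower. Spint1, a membrane inhibitor of the protease matriptase (chromosome 2, 119237362 to 119249527), was at 147 against 41.95 CPM (fold 3.50, 3.22 to 3.81). Per cell it ran from 0 through a median of 19.8 to 4703 CPM with luminal keratins and from 0 through 0 to 360 CPM without. At equal depth 36.7% of cells with (29 of 79) and 17.4% of cells without luminal keratins (4 of 23) had 5 reads or more. Its target protease, St14, was at 69.9 against 101.5 CPM and its relative Spint2 at 557 against 531 CPM, both under 2-fold. Spint1 itself was 2-fold higher or more in each of the 18 other ways of processing, with log2 ratios from 1.15 to 3.24.

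Grhl2, a grainyhead-like transcription factor of epithelial genes, was at 90.6 against 30.3 CPM (log2 ratio 1.55). Its cell medians of 2.36 and 14.7 CPM had the opposite order, and its highest cells were at 1516 CPM with and 135.5 CPM without luminal keratins. Ovol1, a zinc finger repressor of mesenchymal genes, was at 66.6 against 4.02 CPM. Ovol1 reads reached 5 at equal depth in 9 of 79 cells with luminal keratins and in 0 of 23 without, which allows a share of up to 13.04% if the limit is set at 3 cells and 14.8% by the exact interval. Crb3, the small Crumbs protein of the apical membrane, was at 24.5 against 1.69 CPM, and Rab25, an epithelial GTPase of recycling vesicles, at 41.6 against 15.4 CPM. With a luminal keratin limit of 200 CPM the log2 ratio of Crb3 was 0.74 instead of 3.25. The exons of Grhl2, Ovol1 and Crb3 overlap an antisense gene. Esrp1, the epithelial splicing regulator, was at 253 against 308 CPM and Pard3, a scaffold of the Par complex, at 356 against 293 CPM, both well under 2-fold.

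Most measured genes of contacts below the apical junction were at 20 CPM or more. Of all genes at 20 to 100 CPM, 20.6% were 2-fold higher and 16.1% lower, and at 100 CPM or more 6.83% and 6.87%. In the list of adherens junctions and desmosomes 1 of 15 measured genes was 2-fold higher and 2 were lower, with a median of 0.42. Cdh1, E-cadherin, was at 229 against 169 CPM and Cdh3, P-cadherin, at 160 against 107.2 CPM. Perp, a desmosome protein, was at 638 against 338 CPM, a log2 ratio of 0.91. Its cells ran from 0 through a median of 358 to 8869 CPM with luminal keratins and from 0 through 134.6 to 1065 CPM without, and the shares at equal depth were 81.01% and 69.6%. Pkp3, the desmosomal plaque protein plakophilin 3, went the other way, at 81.8 against 191 CPM (log2 ratio -1.21), and within plate rows N to P its ratio was -0.16. The hemidesmosome and laminin-332 list, which holds the parts that anchor basal cells, had 1 of 9 higher, 0 lower and a median of 0.10.

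Markers of periderm and suprabasal epidermis, other skin layers that the whole-skin sample could hold, were higher in the same cells. Of the 12 markers 4 were measured and all 4 were 2-fold higher in cells with luminal keratins: Krt10, Grhl3, Krt4 and Krtdap. Their median was 2.75 (2.61 with Krt4, at 0 reads in the other group, set to 3 reads there). Their summed level per cell ran from 0 through 43.1 to 2068 CPM with luminal keratins and from 0 through 15.8 to 491 CPM without. In summed reads the 12 markers were at 175 CPM with and 40.2 CPM without luminal keratins. They were at 190 CPM in adult luminal and 17.6 CPM in adult basal cells. The list therefore does not tell skin layers from luminal mammary cells. At least 1 marker was found at equal depth in 26 of 79 cells with (32.9%, 22.7% to 44.4%) and in 3 of 23 without luminal keratins (13.04%, 2.78% to 33.6%). Of the markers not measured, Krt13, Ivl, Sprr1a and Sprr3 were at 0 in both groups, and Krt1, Krt6a, Sbsn and Lor had reads but were under 5 CPM. Without the cells with a marker, 53 and 20 remained, and the log2 ratios were 1.57 for Cldn4, 1.84 for Spint1, 1.40 for Grhl2 and 2.11 for Ovol1. In the same cells 5 of 13 measured claudin and tight junction genes were higher and 3 lower, and 6 of 16 polarity genes were higher and 0 lower. Over all genes 2879 were higher and 2135 lower among them. The ratio of Cldn3 was 0.23 there. Cells left out for a marker are called periderm or suprabasal cells below, by the marker alone. The part of periderm and suprabasal cells in the remaining differences was not tested.

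The direction of fibroblast markers depended on the keratin limits. Of 10 measured markers 2 were higher and 2 lower, with a median of -0.04, and 3 or more were found in 10 of 79 cells with and 4 of 23 cells without luminal keratins. Their summed level per cell had a median of 246 CPM (5.48 to 38196) in the first group and 165 CPM (8.01 to 8547) in the second. With a luminal keratin limit of 200 CPM 0 of 10 were higher and 8 lower (median -2.79), and with both Krt8 and Krt18 required 1 was higher and 6 lower (median -1.66). Among cells with both Krt5 and Krt14 6 were higher and 1 lower (median 2.48). In cells without luminal keratins 1 cell gave 85.3% of Col1a1 and 83.7% of Col1a2 reads. Of the Merkel cell markers, a skin cell type that also carries Krt8 and Krt18, only Piezo2 was measured, and Atoh1, Krt20, Sox2, Chga, Rab3c and Insm1 were at 0 in both groups. Of 8 immune markers 1 was measured and lower, and Ptprc, Cd52, Lyz2 and Laptm5 were at 0. Among endothelial markers 1 of 3 measured was higher and 1 lower, with Tie1 and Emcn at 0. Hair placode markers had 2 of 5 higher and 1 lower, melanocyte markers 1 of 2 higher and 1 lower, and erythroid markers 0 of 4 higher and 1 lower. Both measured muscle markers were lower, and the 1 measured Schwann cell marker was within 2-fold.

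**Figure D2:**
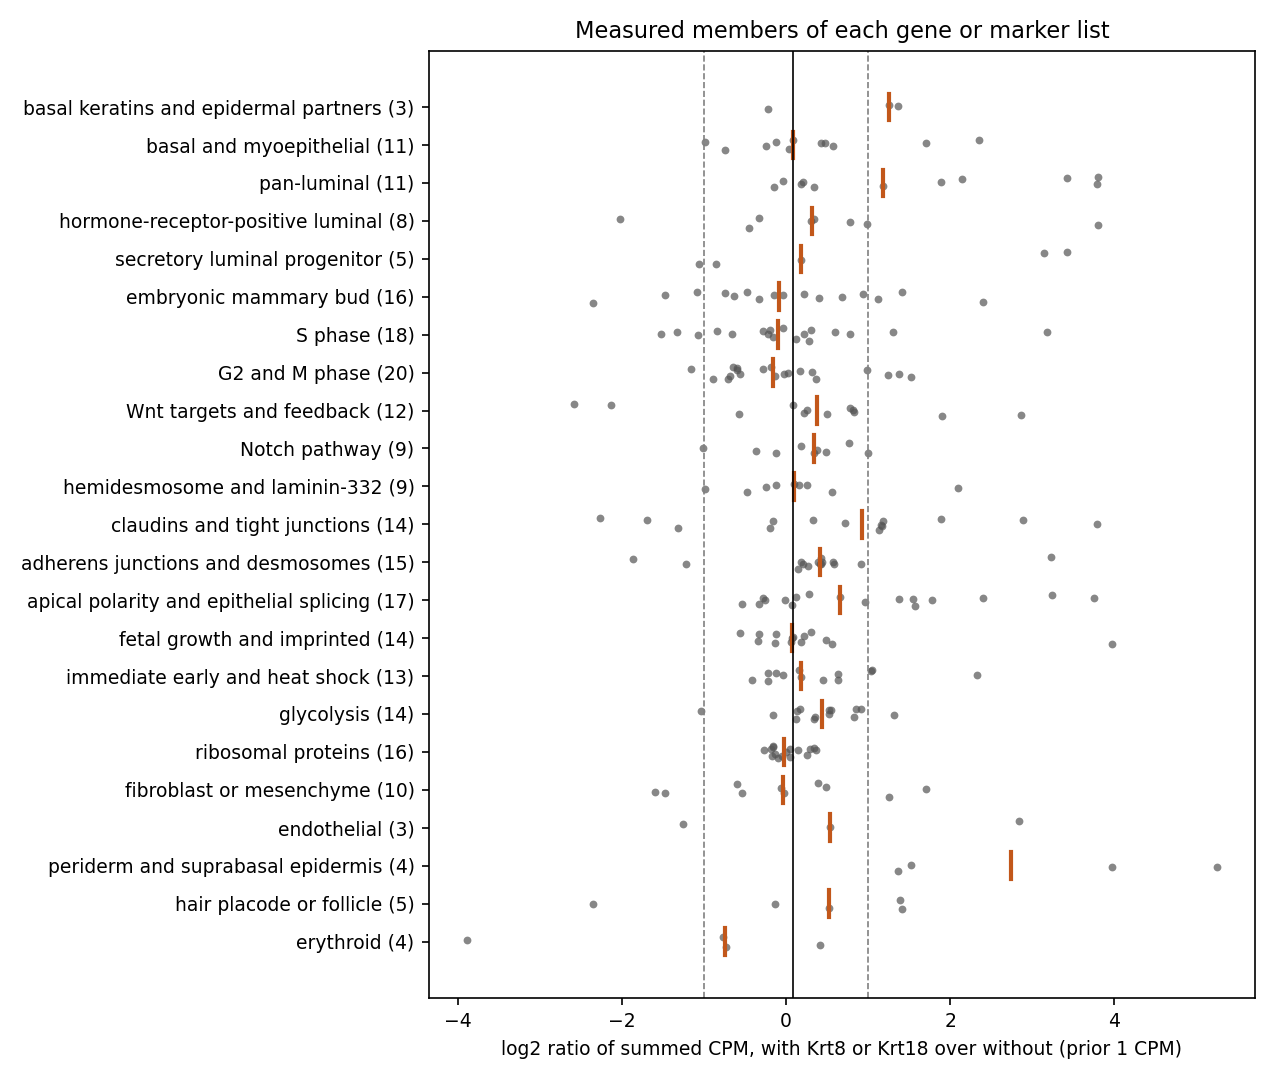
Each point is a measured gene of a list with 3 or more measured members, placed by its log2 ratio of summed CPM between cells with and without luminal keratins, with the number measured in brackets. Orange bars are list medians, the black line is the median of all measured genes (0.08) and dashed lines mark 2-fold. Claudins and tight junctions (0.92), pan-luminal genes (1.18) and periderm and suprabasal markers (2.75) lie to the right, and ribosomal proteins (-0.02) lie at the middle.

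Adult luminal genes other than the keratins of the rule were higher only in part. Of 11 measured pan-luminal genes 6 were 2-fold higher and 0 lower, with a median of 1.18. Of the 8 at 20 CPM or more, 3 were higher, and their median was 0.28, so that most of the shift of the list lay in low genes. Those 3 were Cldn4 and Cldn7, which the claudin list also holds, and Krt19, a type I keratin of simple epithelia, which was at 58.4 against 12.4 CPM (log2 ratio 2.15) and found at equal depth in 11 of 79 and 2 of 23 cells. In plate rows N to P the ratio of Krt19 was 0.45. Epcam, a surface protein of epithelia, was at 762 against 671 CPM and Gata3, a transcription factor of the luminal lineage and the bud, at 862 against 953 CPM. Cd24a, the surface protein used in the adult sort, was at 1383 against 1194 CPM. Areg, an epidermal growth factor receptor ligand, and Elf5, a factor of secretory progenitors, had 0 reads in cells without luminal keratins and were at 12.9 and 9.74 CPM with them, but 1 cell held 62.5% of the Elf5 reads.

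Genes of the later luminal branches were not shifted as lists. Of 8 measured hormone-receptor-positive genes 1 was higher and 1 lower (median 0.32), and of 5 measured secretory genes 2 were higher and 1 lower (median 0.18). Esr1, the estrogen receptor, was at 122.2 against 61.1 CPM (fold 2.00, 1.86 to 2.15), with cell medians of 40.7 and 30.9 CPM. Foxa1, its partner factor in hormone-sensing cells, was at 0.11 CPM with and 0 without luminal keratins, both under the 5 CPM limit. Basal and myoepithelial genes had 2 of 11 higher, 0 lower and a median of 0.08.

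Trp63, the transcription factor p63 of basal epithelia, was at 232 CPM in cells with and 388 CPM in cells without luminal keratins (log2 ratio -0.74). Its cell values ran from 0 through a median of 97.6 to 1505 CPM and from 2.18 through 152 to 2583 CPM. The ranges overlapped, and 49.4% against 69.6% of cells had 5 reads at equal depth. Without the cells with a periderm or suprabasal marker the ratio was -0.25. Itga6, the CD49f of the sort, was at 1050 against 1143 CPM, within 2-fold, and every cell of both groups held reads of it. Epcam was found at equal depth in 73 of 79 and 22 of 23 cells, so nearly all members carried this epithelial marker. The sample was whole skin, and the labels do not say which cells came from a mammary bud.

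A wider set of genes was taken from the adult cells. Genes at least 8-fold different between the adult wells of 50 cells, and at least 4-fold between the adult single-cell sums, were taken as an adult axis. Not all of the 185 adult luminal genes were measured. Of those measured, 34 (30.6%) were 2-fold higher and 20 (18%) lower, with a median of 0.24, beside 22.3% and 15.9% of all measured genes. The summed level of the 185 genes had a cell median of 4903 CPM (949 to 12704) with luminal keratins and 5011 CPM (2052 to 11305) without, beside 58794 CPM in the sum of adult luminal cells. For 508 adult basal genes the cell medians were 30123 and 32291 CPM, and 18.4% of the 358 measured were higher and 15.1% lower. On this axis the groups overlapped throughout.

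**Figure D3:**
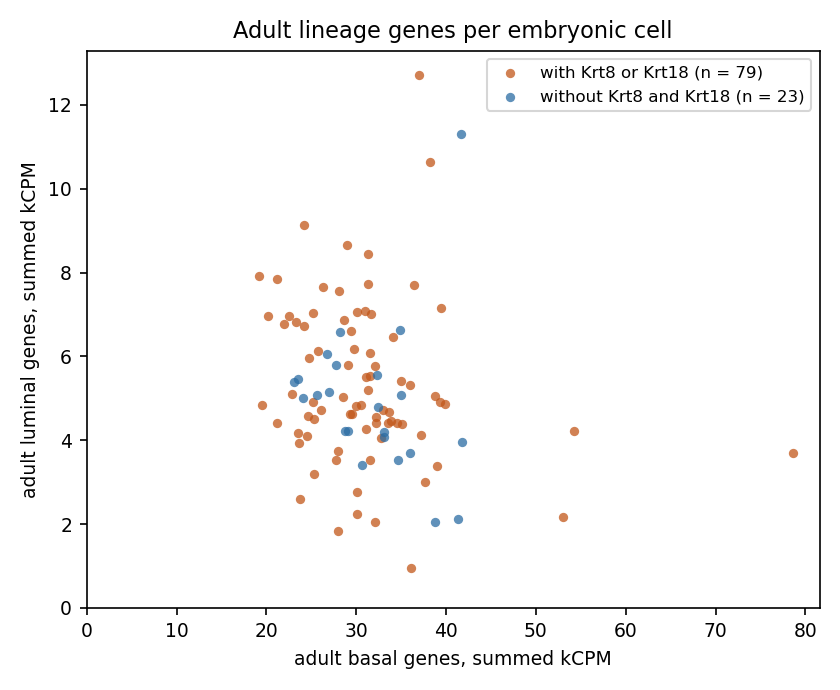
Each point is an embryonic cell with Krt5 or Krt14, placed by the summed CPM of 508 adult basal genes (x) and 185 adult luminal genes (y), in kCPM. Cells with and without luminal keratins overlap, with y medians of 4903 and 5011 CPM.

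The signalling lists are read beside the 22.3% higher and 15.9% lower among all measured genes. Of 12 measured Wnt targets and feedback genes 2 were higher and 2 lower, with a median of 0.37. Of the 12, 9 had a ratio above 0, and the median was positive in all 18 other ways of processing, from 0.20 to 0.89. Rnf43, a ubiquitin ligase that removes Wnt receptors, was at 145 against 38.01 CPM (fold 3.81, 3.50 to 4.17). Its cells ran from 0 through a median of 42.3 to 752 CPM with luminal keratins and from 0 through 14.6 to 360 CPM without, and 40.5% (32 of 79, 29.6% to 52.1%) against 8.70% (2 of 23, 1.07% to 28.04%) had 5 reads at equal depth. With a luminal keratin limit of 200 CPM its log2 ratio was 0.57, and in 17 of the 18 other ways of processing it was over 1. Its paralog Znrf3 was at 390 against 368 CPM, and Lgr5, the receptor of the reporter, at 584 against 527 CPM. Lgr5 ran from 0 through a median of 465 to 3002 CPM in cells with luminal keratins and from 0 through 356 to 2227 CPM without, and its log2 ratio was 1.07 in plate rows K to M and -0.68 in rows N to P. Lef1, a Wnt transcription factor of the bud, was at 166 against 143 CPM.

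Tnfrsf19, a TNF receptor family member also known as Troy, was higher in the cells without luminal keratins, at 87.3 CPM with and 311 CPM without luminal keratins (fold 3.56 lower, 3.42 to 3.71). Its cells ran from 0 through a median of 28.2 to 1009 CPM and from 0 through 214 to 1015 CPM. The ranges overlapped, and 25.3% (20 of 79, 16.2% to 36.4%) against 56.5% (13 of 23, 34.5% to 76.8%) had 5 reads at equal depth. It was under 2 CPM in both adult gates. The log2 ratio of -1.82 stayed between -2.29 and -1.23 in the other ways of processing.

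Of 9 measured Notch pathway genes 0 were higher and 1 lower, with a median of 0.34. A ratio above 0 was seen for 6 of the 9, and the median was positive in 17 of the 18 other ways of processing. The gene lower by 2-fold was the receptor Notch2, at 69.5 against 141 CPM, whereas Notch1 was at 247 against 194 CPM. Hes1, a target repressor, was at 437 against 218 CPM in summed reads, a log2 ratio of 1.00 just under the limit, while its cell medians of 133.4 and 194 CPM had the opposite order. Ligands of the bud varied singly: Wnt6 was at 228 against 382 CPM, Wnt7b at 39.2 against 2.12 CPM, and Pthlh, the parathyroid hormone-like peptide of the bud epithelium, at 373 against 580 CPM. The embryonic bud list had 3 of 16 higher and 3 lower (median -0.09), and Edar, the ectodysplasin receptor, was among the higher at 63.2 against 22.99 CPM.

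**Figure D4:**
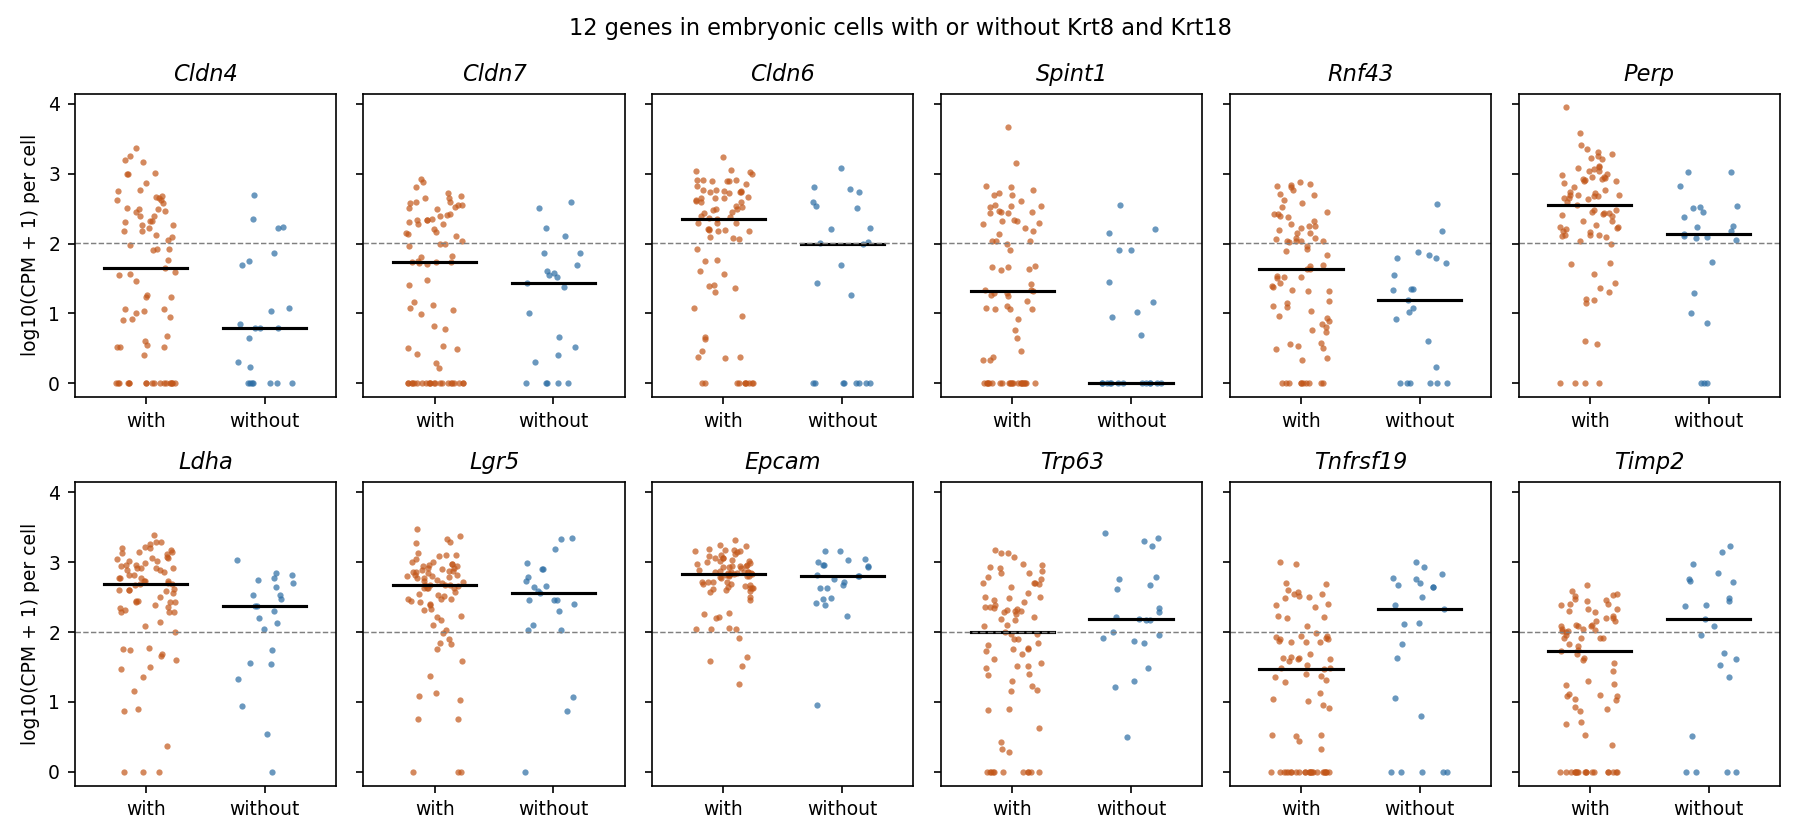
Each point is a cell, as log10(CPM + 1), in cells with (79, orange) and without (23, blue) luminal keratins, with medians as black bars and a dashed line at 100 CPM. Cldn4, Spint1 and Rnf43 have higher medians in cells with luminal keratins, Tnfrsf19 and Timp2 have higher medians without them, and Lgr5 and Epcam overlap throughout.

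**Figure D5:**
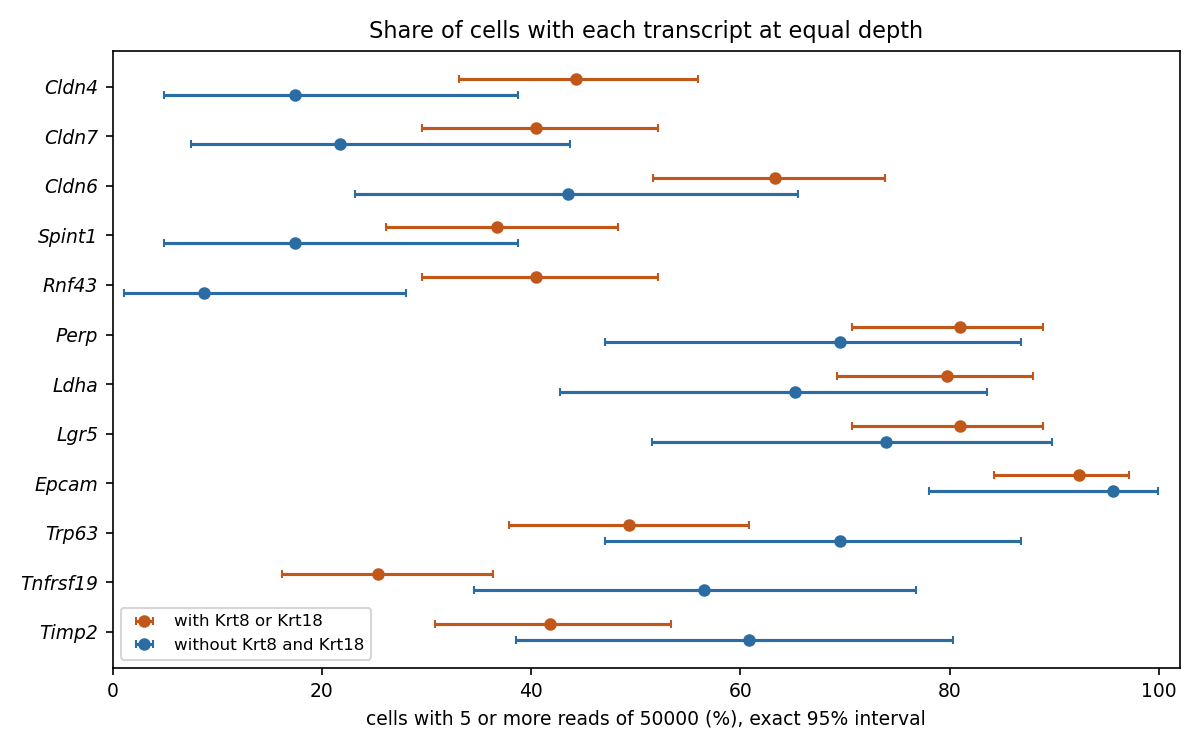
Share of cells with 5 or more reads of each gene after every cell was thinned to 50000 reads, in percent, with exact 95% intervals that cover counting error. Rnf43 is at 40.5% with and 8.70% without luminal keratins, the widest gap in that direction of the 12 genes, and Tnfrsf19 is at 25.3% and 56.5%.

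Among genes past the limits on level and spread over cells, the 15 with the highest log2 ratios were low genes found in few cells. They were Gprasp2, Rab28, Tlcd2, Tex264, Hsdl2, Dmxl2, Tamm41, Fam20c, C1galt1, Thap4, Tmem39b, Wnt7b, Yod1, Mast3 and Crtc1. Their summed levels were 27.7 to 74.3 CPM with and 0.42 to 3.60 CPM without luminal keratins, and at equal depth each was found in 7 to 13 of 79 cells and in at most 1 of 23. Gprasp2, a sorting protein of G protein-coupled receptors, led at 57.6 against 0.42 CPM (log2 ratio 5.36), with 13 cells against 0. Fam20c, a kinase of secreted proteins, and C1galt1, the core O-glycan galactosyltransferase, were at 32.7 against 1.41 and 41.5 against 2.04 CPM. Of the 15, 9 were at least 2-fold higher in every other way of processing, and the exons of 5 overlap another gene, so their reads may be shared.

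The 15 with the lowest ratios were each found at equal depth in 4 to 14 of the 23 cells without luminal keratins. The naming limit on the reads of a single cell is stricter in this smaller group. This range therefore cannot be compared with that of the 15 highest ratios. Of the 15 lowest, those named here are Clk3, Xndc1, Tnfrsf19, Hist1h1e, Azi2, Mkrn1, Timp2, P3h3, Slc38a10, Lpin2, Csnk2a2, Cdk13, Rpp25l and Xpr1. Timp2, an inhibitor of matrix metalloproteinases, was at 96.8 CPM with and 290 CPM without luminal keratins (fold 3.00 lower, 2.88 to 3.12), with cell medians of 52.8 and 155 CPM. Csnk2a2, a catalytic subunit of casein kinase 2, was at 73.9 against 204 CPM and found at equal depth in 17.7% (14 of 79, 10.0% to 27.9%) against 60.9% of cells (14 of 23, 38.5% to 80.3%). Its cell medians were 13.02 and 108.8 CPM. Lpin2, a phosphatidate phosphatase, was at 120 against 343 CPM, with cell medians of 15.8 and 93.6 CPM, and without the periderm or suprabasal cells its log2 ratio was -0.90. Of the 14 named, 5 were at least 2-fold lower in every other way of processing.

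The cells with luminal keratins were then divided into those with Krt8 alone, Krt18 alone or both at the limit. Cldn4 was at 80.8 CPM in cells with neither, 230 with Krt8 alone, 349 with Krt18 alone and 364 with both, and the shares of cells with it at equal depth were 17.4%, 41.03%, 55.6% and 45.2%. Tnfrsf19 was at 311, 80.9, 87.5 and 93.5 CPM in the same order. Rnf43 was at 38.01, 154, 140 and 136.9 CPM, and Trp63 at 388, 252, 241 and 210 CPM. For each of these genes the 3 groups with a luminal keratin lay on the same side of the cells with neither. The 3 groups are parts of the cells already compared, and these genes differed in that comparison. Their shared direction is therefore no separate support. Wnt7b differed from these genes, at 2.12, 18.2, 2.56 and 65.7 CPM, with its reads mainly in cells with both.

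Cycle and housekeeping genes are read beside the shares of all genes at their level, 20.6% higher and 16.1% lower at 20 to 100 CPM. At 100 CPM or more these shares were 6.83% and 6.87%. Of 18 S phase genes 2 were higher and 3 lower (median -0.10), and of 20 genes of G2 and M phase 3 were higher and 1 lower (median -0.16). The G2 and M count changed with plate position: in rows K to M 7 were higher and 1 lower (median 0.55), and in rows N to P 0 were higher and 11 lower (median -1.08). Over all genes 3868 were higher and 2428 lower in rows K to M (median 0.21). In rows N to P these numbers were 3602 and 2388 (median 0.16). Mki67, the proliferation antigen, was at 178 against 279 CPM, and was found at equal depth in 26.6% against 30.4% of cells. Of 14 glycolysis genes 1 was 2-fold higher and 1 lower, but 12 of the 14 had a ratio above 0. Their median of 0.44 was positive in all 18 other ways of processing, from 0.10 to 0.55, and their summed level was 3942 against 3135 CPM. Ldha, lactate dehydrogenase A, was at 716 against 397 CPM, with cell medians of 488 and 237 CPM, and Gpi1, glucose phosphate isomerase, at 172 against 68.7 CPM, with cell medians of 81.03 and 15.3 CPM. At equal depth Gpi1 was found in 37 of 79 and 5 of 23 cells, although its exons overlap an antisense gene. The fetal list, with the imprinted growth factor Igf2 at 427 against 402 CPM and H19 at 721 against 621 CPM, had 1 of 14 higher (median 0.08), and 0 of 16 ribosomal protein genes passed 2-fold in either direction. Of 13 immediate early and heat shock genes 3 were higher and 0 lower (median 0.18), with Egr1 at 901 against 982 CPM and Fos at 494 against 505 CPM, 2 genes known to respond to tissue dissociation.

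Among other keratins, few cells set some of the levels. Krt15, a keratin of basal and stem cells in skin, was at 369 against 430 CPM, but 1 cell gave 70.8% of the reads in cells without luminal keratins. Without that cell the log2 ratio went from -0.22 to 1.39. The ratio of 1.39 still includes high single cells with luminal keratins, at 7315 and 4394 CPM, so it is not balanced between the groups. The share of cells with Krt15 at equal depth was 49.4% (39 of 79) against 34.8% (8 of 23). Krt17, a keratin of appendages, was at 165 against 68.3 CPM, and its log2 ratio of 1.26 was -0.995 without the cells with a periderm or suprabasal marker. Krt10, the suprabasal keratin, is itself one of those markers and was at 41.5 against 15.4 CPM.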

How the data were processed

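The deposited table held raw read counts of 49585 genes and 92 spike-ins in 384 wells. The submitters' processing notes list cutadapt 1.13 and HTSeq 0.6.0, with the aligner STAR 2.5.2b and the build GRCm38. The sources used here give neither annotation nor strand setting, so overlapping and antisense genes cannot be told apart where their exons coincide. GENCODE M21 supplied symbols and coordinates for 49326 identifiers.

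Reads were summed per group and scaled to the summed gene reads (CPM). Ratios used a prior of 1 CPM, and folds, given without the prior, have exact conditional Poisson intervals. Shares used cells thinned to 50000 reads, with 5 reads as detection and Clopper-Pearson intervals. No doublet caller was run. One well with conflicting labels was left out. No test was made, as the gate is 1 sample.

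Named genes were the 15 highest and 15 lowest ratios among genes at 20 CPM or more in the higher group, with a read in at least 25% of its thinned cells, no cell over 25% of its reads, and a 1.5-fold difference in mean cell CPM. Through these limits 1502 genes were eligible as higher and 266 as lower. The limit on the reads of a single cell is stricter in the smaller group. These counts, and the shares of cells with the named genes, therefore do not compare the directions. Ribosomal, mitochondrial and unnamed predicted genes were left out. From each of 19 gene lists and 10 marker lists up to 4 members with the highest level and the few members against the list's direction were named, with keratins and lineage genes such as Trp63, Epcam, Lgr5 and Mki67 always. Areg, Cdh1, Cdh3, Cgn, Cldn3, Cldn8, Crb3, Gpi1, Grhl2, Marveld2, Marveld3, Ocln, Ovol1, Pdgfra, Rab25, Rnf43, St14 and Wnt6 were named after their values were seen. One gene that the rule names is not reported here. The members and lists were chosen with earlier results of these data known. Code was tested on simulated counts, with Python 3.11.15, numpy 2.4.6, pandas 2.3.3, scipy 1.17.1 and edgeR 4.0.16. Alternatives covered scaling, depth, minimum level, prior, keratin limits, cell filters and plate rows.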

Additional observations from a re-analysis of the deposited data

Results flagged for a closer look

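One well was titled as a luminal cell while its sort label names the embryonic gate, and it entered no comparison above. It held 774060 gene reads. Krt8 was at 1543 CPM and Krt18 at 4095 CPM in it, whereas the 4 wells without a cell held at most 1 read of either gene. Krt5 and Krt14 had 0 reads there, so the well would belong to neither group described here. Csn3, a casein of secretory luminal cells, was at 15939 CPM, Epcam at 1917 CPM and Lgr5 at 187 CPM.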

How the results depend on the processing

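No paired analysis was possible because the replicate numbers only count wells in accession order and the comparison comes from no test. Of 18 other ways of processing, 17 were planned and 1, leaving out cells with a periderm or suprabasal marker, was chosen after seeing the data. With no minimum level 4180 genes were higher, and with a minimum of 20 CPM 1432 were higher and 1164 lower. The higher genes made up 50.7% to 64.3% of all 2-fold genes, against 58.4% as reported. Of 22 lists with a median within 2-fold, 16 changed sign in at least 1 way of processing. Among the 7 lists past 2-fold, the log2 medians that changed sign were those of melanocyte markers, simple epithelial keratins and basal keratins. Melanocyte markers were at -0.071 with no minimum level and -1.05 with a minimum of 20 CPM. With both Krt8 and Krt18 required in the cells with luminal keratins their median was -3.20. It was -0.97 among cells with both Krt5 and Krt14 and -1.12 without periderm or suprabasal cells. Simple epithelial keratins were at -1.02 with a luminal limit of 200 CPM, and basal keratins at -0.55 without periderm or suprabasal cells. The simple epithelial list had Krt19 as its 1 measured member in the results above, and the ratio of Krt19 itself kept its sign in all 18 ways. Among genes past 2-fold, ratios that changed sign at the 200 CPM limit were Tlcd2 -0.63, Tamm41 -0.092, Krt17 -0.20, Elf5 -1.80, Krtdap -1.18 and Dcn -2.00. Without periderm or suprabasal cells Krt17 was at -0.995 and Krt10, itself one of the markers used to leave cells out, at -0.42. Rpp25l was at 0.047 among cells with both Krt5 and Krt14, Marveld2 at -0.22 in rows K to M and Ocln at -0.70 in rows N to P. The causes were not tested. With 23 cells without luminal keratins, low genes and genes held by few cells are imprecise.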

Other observations

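Among the kept embryonic cells, 21 lay below the basal keratin limit. In 8 of them Krt8 or Krt18 was at 100 CPM or more, with a Krt8 median of 632 CPM (110.8 to 4275). They still held basal and bud transcripts: Trp63 had a median of 284 CPM and Gata3 of 1022 CPM, and 0 of the 8 had 3 or more fibroblast markers.

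The other 13 were below the limit for all 4 keratins. Their medians were 2799 CPM for Col1a1 and 7227 CPM for Col1a2, the chains of type I collagen, 5752 CPM for Col3a1 and 912 CPM for Dcn, the matrix proteoglycan decorin. Pdgfra, which encodes the CD140a that the sort excluded, had a median of 408 CPM. At least 3 fibroblast markers were found in 11 of the 13, whereas Epcam and Trp63 had medians of 0 CPM. Lgr5 had a median of 11.4 CPM in them and was found at equal depth in 5 of 13.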
